A study of Mus musculus with 4 samples.

Results

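The tripartite motif (TRIM) genes were followed in J774M, a mouse cell line classed by its labels as myeloid-derived suppressor cells, with and without a neutral ceramidase inhibitor. Members were all genes with the symbol Trim followed by a number and at most 1 letter, each represented by its probe set with the highest mean signal, which gave 63 of the 26246 genes measured. The 4 arrays were 2 of control cells and 2 of cells given 10 uM NC06 for 24 h, all grown in RPMI medium with fetal bovine serum. What the control cells received is not stated, and the labels do not say that the 2 samples of a group were separate cultures, so the spread behind each p-value may be only technical. A difference below is the mean log2 signal of the NC06 arrays minus that of the control arrays. In a bulk sample, fewer cells of a type and less RNA per cell cannot be told apart.

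TRIM proteins are ubiquitin ligases built from a RING domain, which recruits the ubiquitin-conjugating enzyme, followed by B-box zinc fingers, a coiled coil and a C-terminal domain that picks the target. Many are made in response to interferon and act in innate immunity, where they restrict viruses or tune the sensors of foreign RNA and DNA. Others repress chromatin or serve muscle, nerve and germ cells.

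The lowest value with NC06 relative to control belonged to Trim30a, at 0.438 times the control signal, followed by Trim12c, Trim21 and Trim14, all of them known for interferon or innate immune roles. The median member differed by -0.020 log2, against 0.0020 for all genes. The differences ran from -1.19 for Trim30a to 0.50 for Trim29, and 30 members lay above 0 and 33 below it. The median of the members was 0.030 without NC06 replicate 2 and -0.093 when each array was centred on its median, a scaling that moved the median of all genes to -0.071.

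None of the 63 members passed an adjusted p of 0.05 when limma was fitted to every gene, and 0.0% of the 26246 genes passed. At an unadjusted p under 0.05 the members counted 8 lower, or 12.7% against 7.52% of all genes, and 2 higher, or 3.17% against 7.79% of all genes. The NC06 arrays were both under the lower control array in 19 members, or 30.2% against 24.4% of all genes, and both over the higher one in 10 members, or 15.9% against 23.3%. Taken in either direction, the share of members with an unadjusted p under 0.05 was 15.9%, near the 15.3% of all genes. With a variance prior that allows a trend with signal and robust fitting, limma called 7 members lower and 0 higher, against 3.12% and 2.44% of all genes, or 5.56% in either direction. These 7 were Trim30a, Trim21, Trim12c, Trim14, Trim28, Trim37 and Trim25. When genes below the median signal were dropped, 36 members were tested, and limma called Trim30a, Trim21, Trim12c, Trim14 and Trim28 lower and Trim29 higher, against 3.06% of genes lower, 3.58% higher and 6.64% in either direction. That filter keeps a gene whose brighter group mean is above 4.99, which Trim30a and Trim12c pass only through control and Trim29 only through NC06, so their calls under it rest partly on the difference itself and support nothing here. In the authors' deposited table the p was under 0.05 for 8 of the 63, against 13.6% of the genes tested.

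Signal strength limits what can be read for many members. The brighter group mean lay above the median of tested genes in 36 of the 63, and below it in 27. Background can compress the differences of dim members, and 1 of these 27, Trim31, had an unadjusted p under 0.05.

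**Figure D1:**
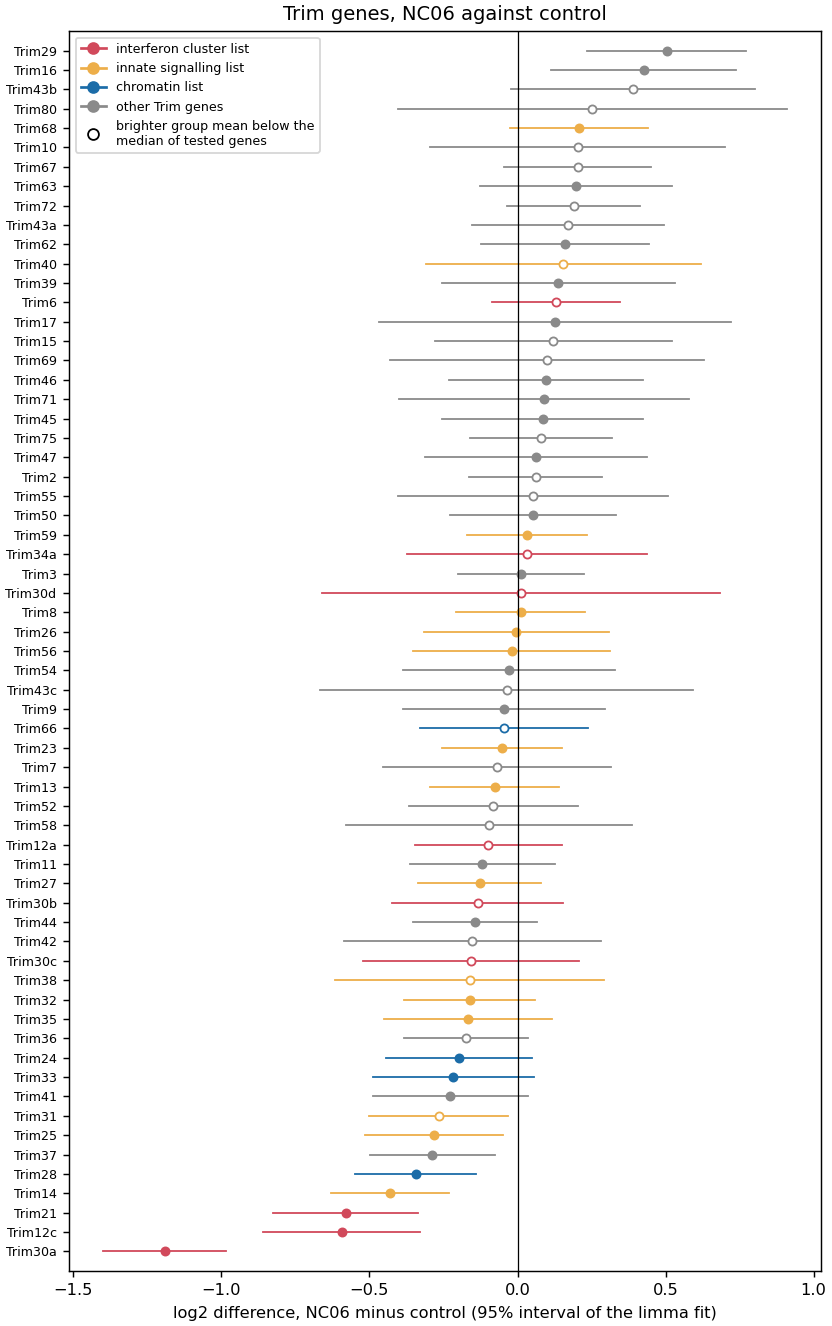
Log2 difference of NC06 minus control (horizontal axis) for each of the 63 Trim genes, with the 95% interval of the limma fit. Colours give the gene list, and open circles mark members whose brighter group mean lies below the median of tested genes. Trim30a, at -1.19, stands apart at the lower end, and all intervals cross 0 except those of the 10 members with an unadjusted p under 0.05.

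Most of the interferon-linked members sit side by side on mouse chromosome 7, in the order Trim6, Trim34a, Trim5, Trim12a, Trim34b, Trim12c, Trim30b, Trim30c, Trim30a and Trim30d, with Trim21 apart from them on the same chromosome. Genes of the interferon response are bound at a DNA element known as ISRE, in which a GAAA repeat recurs at a fixed spacing. The motif searched was GAAA, then NN, then GAAA, where N is any base. It was looked for on both strands, overlapping matches included, in RefSeq windows of assembly GRCm38.p6 that span 250 bases before to 50 bases after each annotated start. Of the 53 Trim genes with a window, 9 held the motif, and 7 of these were among the 11 of the interferon cluster list with a window, counting Trim21. The list was Trim5, Trim6, Trim12a, Trim12c, Trim21, the Trim30 genes and the Trim34 genes. Only 1 of 12 innate signalling genes (Trim26) and 1 of the other 30 (Trim2) held it. The motif was in 3.99% of the 27025 genes of the promoter table. A match describes letters in a window and is not a site shown to be bound.

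The stretches that hold the motif in the members of the cluster list and in Trim26 are shown, because near copies of them lie by genes with different values. Each runs 5′ to 3′ on the gene's strand, with the matched letters in capitals.
Trim30a: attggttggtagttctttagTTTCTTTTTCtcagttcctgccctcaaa
Trim30d: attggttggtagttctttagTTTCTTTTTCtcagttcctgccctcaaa
Trim12c: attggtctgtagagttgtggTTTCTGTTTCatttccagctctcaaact
Trim5: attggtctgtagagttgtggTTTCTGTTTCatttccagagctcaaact
Trim12a: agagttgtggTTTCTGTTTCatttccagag
Trim34a: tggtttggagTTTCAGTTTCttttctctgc
Trim21: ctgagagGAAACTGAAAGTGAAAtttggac
Trim26: ccgcttccgaTTTCACTTTCCTTTTCtcgg
In GRCm38.p6 these lie at chr7:104465202-104465249 on the minus strand for Trim30a, chr7:104507863-104507910 minus for Trim30d, chr7:104353351-104353398 minus for Trim12c and chr7:104288128-104288175 minus for Trim5. The Trim12a stretch is chr7:104315466-104315495 minus, Trim34a chr7:104244457-104244486 plus, Trim21 chr7:102565447-102565476 minus and Trim26 chr17:36836976-36837005 plus. With the annotated start as 0, the first matched base was at -36 in Trim30a (2 in its second annotated window), -41 in Trim30d, -29 in Trim12c, -49 in Trim5, 10 in Trim12a, 10 in Trim34a, 13 in Trim21 and -160 in Trim26. The Trim30a and Trim30d stretches were identical over all 48 bases. Trim12c and Trim5 matched at 46 of 48, and the Trim5 stretch recurred over all 48 bases in the Trim12a window. The best ungapped match to the Trim30a stretch in the Trim30c window had 41 of 48 bases and did not hold the motif. Trim21 and Trim26 carried a run of 2 overlapping matches.

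Trim30a is an interferon-induced mouse gene whose protein is known for restraining NF-kB signalling from Toll-like receptors. Its log2 signal was 5.41 on each control array, and 4.19 and 4.25 with NC06. The control arrays all but coincided, and the gap between groups was many times the spread within them, with 5.41 ± 0.0050 (SD, n = 2) against 4.22 ± 0.044 (SD, n = 2). The difference of -1.19 had an SE of 0.077, a 95% interval from -1.40 to -0.98 and an adjusted p of 0.0546 in limma. It stayed between -1.22 and -1.16 when each array was left out in turn. The control values stood above the medians of their arrays, 4.68 and 4.67, and the NC06 values below theirs, 4.75 and 4.74, so background may compress the difference. The adjusted p was 0.00230 with the trend and robust prior.

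Trim21 encodes a cytosolic antibody receptor that ubiquitinates incoming antibody-coated virus. It read 7.84 and 7.73 in control cells against 7.15 and 7.26 with NC06. The groups were well separated, with a difference of -0.58 (SE 0.091, adjusted p = 0.168 in limma). Trim12c, related to the retroviral restriction factor TRIM5 of primates, read 5.30 and 5.38 against 4.66 and 4.84. Its groups were again separate, at -0.59 (SE 0.099, adjusted p = 0.181 in limma). The authors' deposited table gives this Trim12c probe set the symbol Trim34a, while the platform annotation assigns it to Trim12c alone. Which gene it measures is therefore not settled, and copies of the cluster could share its signal. With the trend and robust prior the adjusted p was 0.00861 for Trim21 and 0.0406 for Trim12c.

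Probe sets that the annotation assigns to more than 1 cluster gene were not tested, and their values are given as they stand. A probe set shared by Trim12c and Trim5 read 6.04 and 6.16 in control cells against 5.73 and 5.62 with NC06, a difference of -0.43. The authors' table names it Trim34a. The other such probe set read 5.02 and 5.12 against 4.80 and 4.89, a difference of -0.23. This is the one that the authors' table names Trim12c, and its difference was smaller than that of the probe set used for Trim12c above. Both shared probe sets had their NC06 arrays below their control arrays. The probe set shared by Trim34b and Trim34a read 5.89 and 6.03 against 5.47 and 6.01, and its groups overlapped. Trim5, Trim34b, Trim60, Trim61 and Trim65 are measured only on shared probe sets and are not among the 63.

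The neighbours of Trim30a had smaller differences. Trim30d, with the identical promoter stretch, read 3.64 and 2.94 in control cells against 3.32 and 3.28 with NC06, a difference of 0.012 with a 95% interval from -0.66 to 0.69. Its control arrays enclosed both NC06 arrays. Trim30b read 4.13 and 3.97 against 4.0 and 3.84, and Trim30c 3.62 and 3.83 against 3.44 and 3.70, with overlapping groups in both. Trim12a, whose window repeats the Trim5 stretch, read 4.25 and 4.33 against 4.12 and 4.26, also overlapping, at -0.099 (95% interval from -0.35 to 0.15). All of these probe sets were below the median signal, where background can compress differences, and the contrasts between these genes and Trim30a were not tested.

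Trim34a read 4.24 and 4.15 in control cells against 4.03 and 4.41 with NC06, a difference of 0.031 that turned to -0.042 after median centring. A second, dimmer probe set that the platform annotation assigns to Trim34a read 2.55 and 2.31 against 1.84 and 1.90. The authors' table gives it the symbol Gm15135, so it may not measure Trim34a. The values of this second probe set lie below the lower quartile of every array, which ran from 3.51 to 3.57. Trim6, known for making free polyubiquitin chains that activate the kinase IKK-epsilon, read 3.90 and 3.83 against 4.03 and 3.97, with both NC06 arrays higher and a difference of 0.13 (95% interval from -0.086 to 0.35). Over the 9 measured genes of the interferon cluster list, 3 had an unadjusted p under 0.05, all lower, against 7.52% of all genes. The median of the list was -0.13. It was -0.21 without control replicate 2 and -0.028 without NC06 replicate 1.

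**Figure D2:**
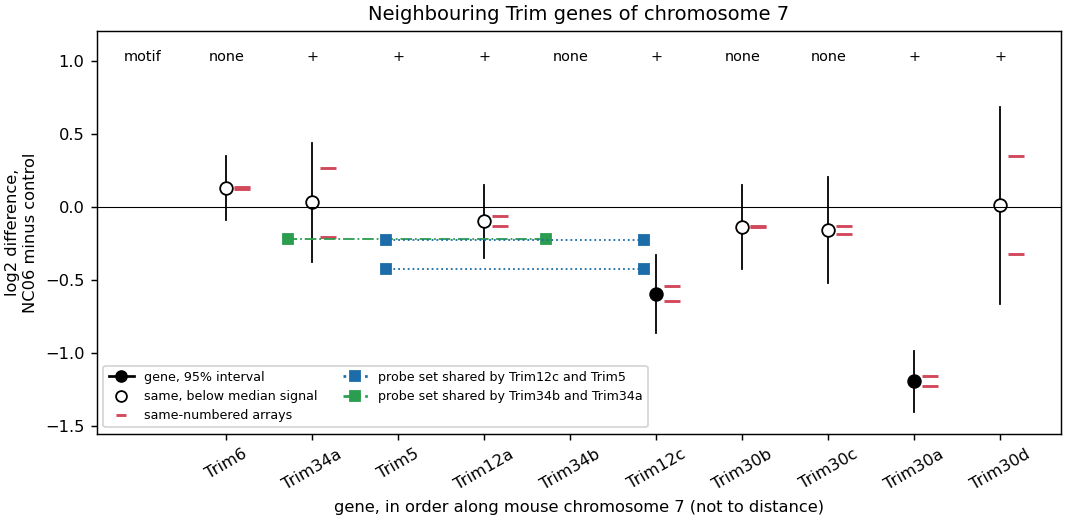
Log2 difference of NC06 minus control for the neighbouring Trim genes, in their order along chromosome 7. Circles are genes with their 95% interval, red dashes the same-numbered arrays, squares probe sets shared by a pair of genes, and the top line says whether the promoter window holds the GAAA repeat motif. Trim30a at -1.19 and Trim12c at -0.59 stand below 0, while Trim30d with the same motif is at 0.012.

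Of 693 tested genes with the motif, 29.3% had both NC06 arrays under both controls, against 26.3% of 17332 without it. An unadjusted p under 0.05 with a lower value was held by 10.8% of the genes with the motif and 7.97% of those without it. Among the members, 3 of 8 with the motif were lower by both measures (Trim30a, Trim12c and Trim21). Of the 41 members without it, 11 had both NC06 arrays under both controls and 4 had an unadjusted p under 0.05 with a lower value. These differences in share were not tested.

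Of the Trim genes known for acting on RNA and DNA sensing, Toll-like receptor or NF-kB signalling, 15 were measured, with a median of -0.078 that was -0.15 after median centring. The groups were separate in 10 of them, with NC06 lower in 8 and higher in 2, where 47.7% of all genes were separate, 24.4% lower and 23.3% higher. Of the 15 genes 12 were above the median signal, a range in which 35.3% of all genes were separate with NC06 lower. Trim14, which lacks the RING domain and supports signalling from MAVS and cGAS, read 7.69 and 7.70 in control cells against 7.26 and 7.27 with NC06. Its arrays agreed closely within each group, at a difference of -0.43 (SE 0.074, 95% interval from -0.63 to -0.23) and an adjusted p of 0.191 in limma. In the authors' deposited table, Trim14 has a p of 0.000270, the lowest of the members, and Trim30a one of 0.000688. Trim25, the ligase known for activating the RNA sensor RIG-I, read 9.80 and 9.92 against 9.55 and 9.61, a difference of -0.28 (SE 0.087). Trim31, known for ubiquitinating MAVS, read 3.90 and 3.89 against 3.56 and 3.70, at -0.27 (SE 0.087). The Trim25 and Trim31 groups did not overlap, but each kept an unadjusted p under 0.05 in only 1 of the 4 fits that left out an array.

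A further 5 members of the class had separate groups with NC06 lower. Trim35 read 6.71 and 6.87 in control against 6.55 and 6.70 with NC06, at -0.17. Trim32, a ligase mutated in a human limb-girdle muscular dystrophy, read 7.13 and 7.23 against 7.03 and 7.01, at -0.16. The control arrays were the higher ones in each. For Trim35 the lower control array, at 6.707, was barely above the higher NC06 array, at 6.696. Trim27 read 9.56 and 9.53 against 9.39 and 9.44, at -0.13. Trim13, a ligase of the endoplasmic reticulum, read 5.88 and 5.81 against 5.73 and 5.80, at -0.078. Trim23, which carries an ARF GTPase domain, read 7.28 and 7.24 against 7.20 and 7.22, at -0.053. The 95% intervals of all 5 included 0.

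Only Trim68 and Trim59 were higher with NC06 on both arrays in this class. Trim68 read 6.74 and 6.84 in control cells against 7.04 and 6.96 with NC06. The difference was 0.21 (95% interval from -0.024 to 0.44). Trim59 read 9.11 and 9.10 against 9.16 and 9.12, at 0.032 as deposited and at -0.041 after median centring.

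For Trim56, a ligase linked to cGAS and STING signalling, the arrays read 7.78 and 7.92 against 7.70 and 7.96. Trim26, known for degrading IRF3 and with the motif in its promoter window, read 8.02 and 7.95 against 7.85 and 8.11. In both the NC06 arrays enclosed the control arrays, and their differences of -0.020 and -0.0038 changed sign under quantile normalization. Trim8, a positive regulator of NF-kB signalling, read 9.87 and 9.96 against 9.91 and 9.93, at 0.010 (95% interval from -0.21 to 0.23), with a sign that turned after median centring. Trim38 read 3.63 and 3.21 against 3.33 and 3.18, at -0.16, and Trim40 read 3.46 and 3.92 against 3.83 and 3.86, at 0.16. The groups of these 3 genes overlapped, and the last pair lay below the median signal.

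The 4 TIF1 genes, which encode chromatin corepressors, all had a lower mean with NC06, as did 12984 of all 26246 genes. Trim28, the corepressor that KRAB zinc finger proteins recruit to silence transposons, read 10.90 on each control array against 10.53 and 10.58 with NC06. Its groups were separated by far more than their spread, at -0.34 (SE 0.076, 95% interval from -0.55 to -0.14, adjusted p = 0.227 in limma, and 0.00461 with the trend and robust prior). Trim24, known also for ubiquitinating p53, read 8.51 and 8.45 against 8.21 and 8.36, at -0.20 (SE 0.092). Trim33, a partner of SMAD signalling, read 8.30 and 8.18 against 7.94 and 8.10, at -0.22 (SE 0.10). Both had non-overlapping groups and intervals that included 0. Trim28, Trim24 and Trim33 lie above the median signal, a range in which 35.3% of all genes were separate with NC06 lower. Trim66 read 4.83 and 4.90 against 4.92 and 4.72, with overlapping groups, at -0.046.

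**Figure D3:**
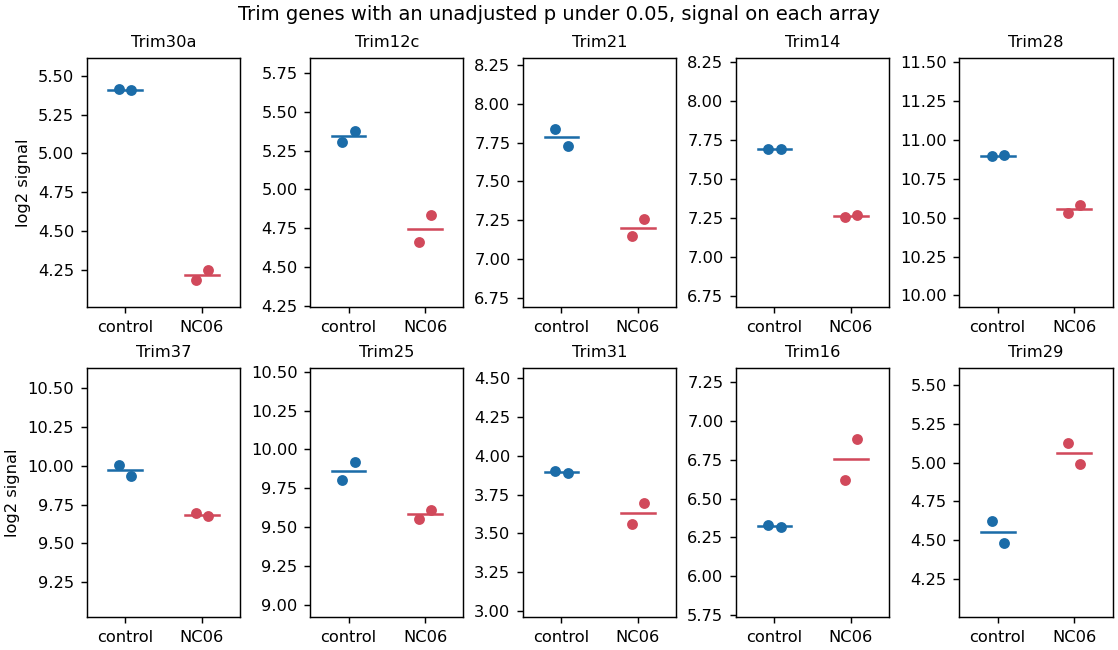
Log2 signal on each array (points) and group mean (line) for the 10 Trim genes with an unadjusted p under 0.05. Every panel spans the same log2 range, and the groups of each gene do not overlap. The Trim30a panel shows the widest gap, from 5.41 in control cells to 4.22 in NC06 cells.

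Outside these classes 35 members remained, of which 3 had an unadjusted p under 0.05, against 15.3% of all genes. The groups of these 3 did not overlap. Trim29, a RING-less member first known from epithelial cells, read 4.63 and 4.48 in control cells against 5.13 and 4.99 with NC06. It was higher on both, at 0.50 (SE 0.10, 95% interval from 0.24 to 0.77, adjusted p = 0.209 in limma). Trim16, another RING-less member, known for clearing damaged lysosomes with galectin-3, read 6.33 and 6.32 against 6.62 and 6.88, at 0.43 (SE 0.12, adjusted p = 0.256 in limma). A dimmer probe set shared by Trim16 and Fbxw10 read 3.87 and 3.89 against 4.01 and 4.10. Trim37, a ligase of centrosome control, read 10.01 and 9.94 against 9.69 and 9.67, at -0.29 (SE 0.078, adjusted p = 0.256 in limma). Trim16 and Trim37 each kept an unadjusted p under 0.05 in only 1 of the 4 fits that left out an array, whereas Trim30a, Trim21, Trim12c, Trim14, Trim29 and Trim28 did in all 4.

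The remaining 32 members ran from -0.23 for Trim41 to 0.39 for Trim43b, with a median of 0.070. Of them 21 lay above 0 and 11 below, and 15 were above the median signal. Their adjusted p ran from 0.343 to 0.958. Among the 10 genes known for muscle or nerve cells, such as the muscle ligase Trim63 at 0.20, the median was 0.057, and it was -0.016 after median centring. The 5 RING-less members were split, with Trim14 and Trim44 (-0.14) lower with NC06 on both arrays, Trim29 and Trim16 higher, and Trim66 overlapping. Of all genes, 24.4% had both NC06 arrays below both controls and 23.3% had both above.

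Tripartite motif proteins with other symbols were measured for 4 genes, with a median of 0.16. Mid2, a microtubule-bound ligase, read 7.71 and 7.48 in control cells against 7.92 and 8.06 with NC06, at 0.40 (SE 0.12). Pml, the organizer of nuclear bodies and itself interferon-induced, was at 0.14 (95% interval from -0.13 to 0.40), and the pyrin gene Mefv at 0.18 with overlapping groups. Of the 4 only Mid2 had an unadjusted p under 0.05, and its adjusted p in limma was 0.270.

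The interferon system in which many TRIM genes act held the widest differences among the related lists. Of 14 genes of interferon receptors, signalling and feedback, 6 were lower and 2 higher at an unadjusted p under 0.05. The shares of all genes were 7.52% lower and 7.79% higher. Of the 14 genes, 13 lay above the median signal, where 1479 of 13123 genes were lower and 1222 higher at that threshold. The list's median was -0.087, and it was -0.20 without control replicate 1, -0.18 without NC06 replicate 2 and -0.037 without NC06 replicate 1. Irf7, which amplifies interferon production, read 9.22 and 9.59 against 7.17 and 7.13, at -2.25 (SE 0.15). Irf9, the DNA-binding part of the factor that recognises ISRE elements, was at -1.18 (SE 0.099), and Usp18, which removes ISG15 and damps the receptor, at -1.0 (SE 0.085). The adjusted p in limma was 0.0546 for Irf7, and 0.0793 for Irf9 and Usp18, and with the trend and robust prior it was 0.00011, 0.00045 and 0.00018. These 3 and Trim30a had adjusted p-values within 0.10, as did 0.446% of all genes.

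Of 19 sensors, adaptors and kinases that TRIM proteins are known to modify, 6 were lower and 2 higher at an unadjusted p under 0.05. The shares of all genes were 7.52% lower and 7.79% higher. All 19 lay above the median signal, where 1479 of 13123 genes were lower and 1222 higher at that threshold. The median of the list was -0.099. Ifih1, the RNA sensor MDA5, read 8.06 and 8.27 against 7.23 on both NC06 arrays, at -0.93 (SE 0.10). Dhx58, the related helicase LGP2, was at -1.05 (SE 0.16). Ikbkg, the NF-kB kinase subunit NEMO, read 7.40 and 7.49 against 7.97 and 7.93 and was higher, at 0.51 (SE 0.080). Their adjusted p in limma was 0.103 for Ifih1, 0.156 for Dhx58 and 0.170 for Ikbkg, and it was 0.0015, 0.0052 and 0.0088 with the trend and robust prior.

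Of 12 ubiquitin-conjugating enzymes of the kind that RING domains use, 1 had an unadjusted p under 0.05, against 15.3% of all genes. This was Ube2l6, the interferon-induced enzyme that also conjugates ISG15, which read 7.22 and 7.37 against 6.79 and 6.41, at -0.69 (SE 0.16, adjusted p = 0.231 in limma, and 0.029 with the trend and robust prior). Ube2v1 at 0.28 and Ube2e2 at -0.16 had the next smallest p, and the median of the list was -0.061. Of 13 partners of TRIM28, 8 had separate groups with NC06 lower, against 35.3% of all genes above the median signal, where all 13 lay. An unadjusted p under 0.05 was held by 1, near the 7.52% of all genes that were lower, and this was Cbx1 (heterochromatin protein 1 beta) at -0.26 (SE 0.089). The DNA methyltransferase Dnmt1 was at -0.23 and the heterochromatin protein Cbx5 at -0.16, and the median was -0.092.

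**Figure D4:**
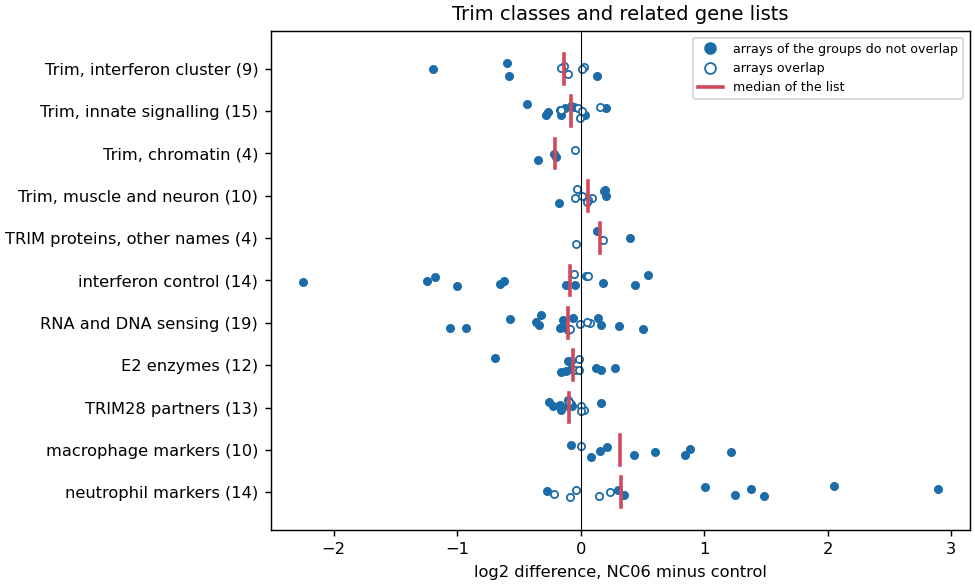
Log2 difference of NC06 minus control for each member of the Trim classes, the related lists and the macrophage and neutrophil markers, with the number measured in brackets. Filled points have groups that do not overlap, and the red bar is the median of the list. The interferon control genes reach -2.25 while most Trim genes lie near 0, and the marker lists lie to the right.

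Markers of cell identity differed between the same arrays. All 10 macrophage markers lay above the array median on every array, and their summed linear signal was 14319 and 14731 in control cells against 19166 and 19275 with NC06. Of 14 neutrophil markers, 7 or 8 lay above the array median, with summed signals of 1371 and 1540 against 4232 and 4038. These markers went both ways, with 10 at a positive difference, such as Mmp8 at 2.89, Mmp9 at 2.05 and Lcn2 at 1.25, and 4 at a negative one, Ngp at -0.28, S100a9 at -0.22, Csf3r at -0.090 and Mpo at -0.036. Markers of T and NK cells were above it for 1 to 3 of 10 genes and those of B cells for 1 or 2 of 7, and no marker was at 0. Summed signals of the 5 erythroid and megakaryocyte markers measured were 1556 and 1479 against 3872 and 3435, and those of the B cell markers 3950 and 4038 against 3122 and 3052. Of the other lists, 3 or 4 of 7 dendritic cell and 4 to 6 of 9 fibroblast and epithelial markers lay above the array median. Whether these shifts have a part in the TRIM values was not tested. Array values correlated across genes at 0.995 within groups and at 0.993 to 0.994 between them.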

How the data were processed

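RNA of 4 J774M samples was measured on whole-transcript Affymetrix arrays, 2 control and 2 NC06, grouped and numbered by the sample titles. Per the submitters' processing notes the deposited log2 signals were made with Partek; background correction and normalization are not given in the sources used here. Ratios of NC06 over control in the authors' deposited table equalled the differences of the log2 values within 8.8e-05 on the log2 scale, which fixes the direction, and the table's p-value column was used only as an alternative.

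Of 41345 probe sets, 23521 were named by the platform annotation and 4311 by the authors' table where RefSeq held the symbol. Another 1820 with several genes and 11693 unnamed were left out, and the brightest probe set per gene was kept. Differences were tested with limma 3.58.1 in R 4.3.3 (lmFit and eBayes, two-sided, Benjamini-Hochberg over 26246 genes), without filter or further normalization. On simulated data the main fit recovered 51 of 100 changes of 1 log2 and 92 of 100 changes of 2 log2, with 12 false calls. The simulated spread was drawn from the fitted prior. In the real data the same fit called 0 genes, so these rates need not hold here. Tables were made with Python 3.11.15 and pandas 2.3.3. The 2 arrays per group limit precision. All 63 members matched RefSeq symbols, and 49 of them have promoter windows.

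The members and gene lists were chosen with earlier results of these data known. Per-array values were given for the interferon cluster, innate signalling and TIF1 lists, for other members with separate groups and an unadjusted p under 0.05, and the 3 smallest p of each related list were named. Further members were named after their values were seen. Alternatives were 2 normalizations, filters on dim genes, another variance prior, probe set averaging, platform names alone, a replicate block and leaving out each array.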

Additional observations from a re-analysis of the deposited data

How the results depend on the processing

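With 2 arrays per group and the plain variance prior, the fit called 0 genes, and settings that drop dim genes or moderate the variance by signal called more. The calls over all genes were 13 after quantile normalization, 3 after median centring, 133 without the lowest signal quartile, 871 without genes below the median signal, 1459 with the trend and robust prior, 2 with the mean of a gene's probe sets and 63 with platform names alone, and 0 in each fit that left out an array. Of the Trim members, 1 was called without the lowest quartile and with platform names alone (Trim30a in both), 6 without genes below the median signal, 7 with the trend and robust prior and 1 at an adjusted p under 0.10, and the authors' deposited p was under 0.05 for 8. An unadjusted p under 0.05 was held by 10 members, by 16 with the trend and robust prior, and by 8 to 10 when an array was left out. Of these, 8 were lower, and 13 after median centring. That scaling made 75.3% of all such genes lower, against 49.1% as deposited.

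The median of all members was -0.093 after median centring and -0.054 to 0.030 when an array was left out. The median of the innate signalling class was -0.15 after centring and -0.13 to -0.046 with an array left out, and that of the interferon cluster was -0.21 to -0.028 with an array left out. It was -0.59 without genes below the median signal, from 3 genes, of which Trim30a and Trim12c passed the filter only through control. The muscle and nerve genes had -0.016 after centring, 0.013 without genes below the median signal and 0.026 to 0.14 with an array left out. The RING-less genes had 0.14 without genes below the median signal. The E2 enzymes had -0.13 and the sensing genes -0.17 after centring, with -0.10 to -0.0011 and -0.13 to -0.043 when an array was left out. The tripartite motif genes with other symbols ranged from -0.0053 to 0.25, the interferon control genes from -0.20 to -0.037 and the TRIM28 partners from -0.12 to -0.058. In the 250 bases before the start alone, 4 members in place of 8 held the motif, by the shorter window.

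Of the 63 members, 28 turned sign in at least 1 fit that left out an array, up to Trim80 (0.25, and -0.045 without NC06 replicate 1) and Trim10 (0.20, and -0.037 without it). None of the 10 members with an unadjusted p under 0.05 did. Median centring turned 9 members and quantile normalization 5. Of the members described by array, Trim26 after quantile normalization was at 0.049, Trim30d at -0.011, Trim34a at -0.019 and Trim56 at 0.029. After median centring Trim30d was at -0.061, Trim34a at -0.042, Trim59 at -0.041 and Trim8 at -0.063. With probe sets averaged Trim34a was at -0.27, by the dimmer probe set that the authors' table names Gm15135. Leaving out an array gave -0.13 to 0.12 for Trim26, -0.34 to 0.36 for Trim30d, -0.16 to 0.22 for Trim34a, -0.37 to 0.050 for Trim38, -0.076 to 0.39 for Trim40, -0.15 to 0.11 for Trim56, -0.15 to 0.058 for Trim66, -0.035 to 0.056 for Trim8 and -0.070 to 0.43 for Mefv. Same-numbered arrays deviated together with a correlation of only 0.032 and share only a number. With the replicate block 0 genes and 0 Trim members were called, and 9 members had an unadjusted p under 0.05. Where no cause is given, the cause was not tested.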
